A study of Mus musculus with 4 samples.

Results

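Cyclic AMP and cyclic GMP are second messengers that adenylyl and guanylyl cyclases make and that phosphodiesterases degrade. In T cells a high cyclic AMP level acts mainly through protein kinase A, which dampens signals of the T cell receptor, and kinase A activates transcription factors of the CREB family, to which CREM belongs. The genes described here were 5 phosphodiesterase genes (Pde2a, Pde3b, Pde4b, Pde4d and Pde7a), Adcy7, the gene of an adenylyl cyclase typical of blood cells, and Crem. The members were chosen by name with earlier results of these data known. Their counts and medians beside those of all genes are therefore a description only. All probe sets annotated to them by a current or older symbol were taken. This gave 26 probe sets of these 7 genes out of 34945 probe sets of 18193 genes. All 7 genes had at least 1 probe set with a mean signal of 100 or more, and 20 of the 26 probe sets reached that mean.

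RNA was measured in effector Th17 and Th1 cells of the mouse, cultured for 6 days from splenic CD4 T cells of low CD44 and sorted by the surface level of CD30 into CD30high Th17, CD30low Th17, CD30high Th1 and CD30low Th1 cells, with 1 array per group. Th17 cells were grown with IL-23, IL-6 and IL-1β while IFN-γ and IL-4 were blocked by antibodies, and Th1 cells with IL-12 and IL-2 while IL-4 was blocked. By the methods, the T cells carried a transgenic receptor for ovalbumin and were stimulated with its peptide and irradiated splenocytes without T cells, and all mice of the study were young adults, but which transgenic strain gave the cells of these arrays was not stated. The labels describe the starting cells as CD62L high for the CD30high samples and CD62L low for the CD30low samples, whereas the methods describe naive cells throughout, so a difference between the gates cannot be told apart from a difference between starting cells if the labels hold. No group had a replicate, and no p-value is given. A gene passed the fold rule when its signals, with those below 100 set to 100, differed at least 2-fold and the brighter signal was at least 300. Each gene is given by its probe set of highest mean over the arrays unless stated, and all ratios are on this floored scale. The only error at hand was technical. The log2 ratios of the 2 brightest probe sets of a gene were compared over 2928 genes with both at a mean of 300 or more. Their SD per probe set was 0.20 for CD30high over CD30low in Th17 cells and 0.23 in Th1 cells. For Th17 over Th1 it was 0.31 in CD30high and 0.29 in CD30low cells. This technical SD leaves out any error that the probe sets of an array share. A ratio beyond it may therefore still be due to error.

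The leading cytokine and transcription factor of the lineages followed the labels. Il17a was at 14443 in CD30high Th17 and 1398 in CD30low Th17 cells and below 100 in Th1 cells, and Tbx21 was below 300 in both Th17 samples, against 2352 in CD30high Th1 and 2189.8 in CD30low Th1 cells. Other lineage markers separated the samples less clearly. The Th1 gene Il12rb2 was at 281 in CD30high Th17, 138 in CD30low Th17, 394 in CD30high Th1 and 269 in CD30low Th1 cells, and the Th17 gene Ccr6 was at 333, 136, 172 and 49.2 in the same order of samples. The summed signal of the T cell markers Cd3e, Cd3g and Cd4 was 10451 in CD30high Th17, 15825 in CD30low Th17, 18114 in CD30high Th1 and 21916 in CD30low Th1 cells. The transcript of CD30, Tnfrsf8, was dim, with 132 in CD30high Th17, 34.9 in CD30low Th17, 51.1 in CD30high Th1 and 13.3 in CD30low Th1 cells. The Y-linked gene Eif2s3y was below 100 in both Th17 samples, against 1640.0 in CD30high Th1 and 1784 in CD30low Th1 cells. Xist, a gene expressed in female cells, was at 22613 in CD30high Th17, 22350.0 in CD30low Th17, 16222 in CD30high Th1 and 14620.4 in CD30low Th1 cells. The Th1 samples thus held transcripts of both sexes. Lineage therefore cannot be told apart from the mice that gave the cells. In such bulk samples fewer cells of a type and less RNA per cell cannot be told apart either.

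The promoter windows of the members were searched for the DNA element bound by CREB and CREM, because Crem was itself among the genes. Windows in RefSeq (GRCm38.p6) run from 250 bases before to 50 after a transcript start, and 13 windows of 4 members (Pde2a, Pde4b, Pde4d and Adcy7) were matched by symbol. The full palindrome TGACGTCA was in 0 of the 13 windows and in 1.79% of all 32851 windows. Its core TGACG, read on either strand and also counted inside the palindrome, was in 3 of the 13 (23.1%) and in 20.8% of all windows. The 3 windows are shown around the core, which lies on the reverse strand and so reads CGTCA, in capitals. All 3 genes are on the plus strand, and counted from the transcript start the core begins at -34 in Pde4b, 14 in Pde2a and -28 in Adcy7.
Pde4b, chr4:102421491-102421555: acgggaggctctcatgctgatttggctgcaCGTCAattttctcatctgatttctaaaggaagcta
Pde2a, chr7:101450504-101450568: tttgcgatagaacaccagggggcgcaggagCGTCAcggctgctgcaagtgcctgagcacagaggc
Adcy7, chr8:88282934-88282998: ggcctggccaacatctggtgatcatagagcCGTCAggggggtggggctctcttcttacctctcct

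Each gene has other windows without the core, 3 for Pde4b, 4 for Pde2a and 2 for Adcy7, and the arrays do not tell which start was used. A match is a stretch of letters and says nothing of binding.

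Pde2a (chr7:101421691-101512829 in GRCm38.p6, as are the positions that follow) encodes a phosphodiesterase that degrades cyclic AMP as well as cyclic GMP and is stimulated by cyclic GMP. Its brightest probe set had a signal of 489 in CD30high Th17, 565 in CD30low Th17, 1611 in CD30high Th1 and 5044 in CD30low Th1 cells. Both Th1 samples were thus above both Th17 samples, and CD30low Th1 cells were highest. The same order held in all 3 probe sets of the gene. The second probe set had 37.7, 119.7, 347 and 834 in the same order of samples, and the dimmest had 169, 202, 346 and 429. The last step of the order, between the Th17 samples, was 0.21 on the log2 scale against a technical SD of 0.20.

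Pde3b (chr7:114415222-114537938) encodes a cyclic AMP phosphodiesterase that cyclic GMP inhibits. Its single probe set had a signal of 3664 in CD30high Th17, 8585 in CD30low Th17, 10137 in CD30high Th1 and 12856 in CD30low Th1 cells. CD30high Th17 cells stood apart as the lowest, while CD30low Th17 and CD30high Th1 cells differed by 0.24 on the log2 scale, which is within the technical SD of 0.28 for that pair.

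Pde4b (chr4:102087332-102607275) and Pde4d (chr13:108654177-109955969) encode phosphodiesterases specific for cyclic AMP, of the subfamily that rolipram inhibits. Pde4b had a signal of 3056 in CD30high Th17, 1797 in CD30low Th17, 2771 in CD30high Th1 and 3517 in CD30low Th1 cells. CD30low Th17 cells were lowest in each of its 3 probe sets above 100, and the order of all 4 samples was the same in the 3. The steps among the upper 3 samples, 0.20 and 0.14 on the log2 scale, were within the technical SD of 0.32 and 0.31. The other 3 Pde4b probe sets were below 100 on every array. Pde4d had a signal of 1323 in CD30high Th17, 2109 in CD30low Th17, 1785 in CD30high Th1 and 2181 in CD30low Th1 cells. CD30high Th17 cells were lowest here, and the steps among the upper 3 samples, 0.05 and 0.24 on the log2 scale, were within the technical SD. A second Pde4d probe set was below 100 throughout.

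Pde7a (chr3:19223108-19311322) encodes a cyclic AMP phosphodiesterase of high affinity that rolipram does not inhibit. Its brightest probe set had a signal of 1002 in CD30high Th17, 802 in CD30low Th17, 1438 in CD30high Th1 and 1345 in CD30low Th1 cells. All 7 probe sets were higher in the Th1 than in the Th17 sample of the same gate, and 5 of them gave the same order of the 4 samples. The Th1 samples differed by 0.10 on the log2 scale, within the technical SD of 0.23.

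Adcy7 (chr8:88272190-88329965), the source of cyclic AMP among these genes, had a signal of 3346 in CD30high Th17, 5247 in CD30low Th17, 7649.8 in CD30high Th1 and 9536 in CD30low Th1 cells. Its other probe sets had 1094, 1727, 2179 and 3121, and 376, 527, 1032 and 1579, in the same order of samples. All 3 probe sets were therefore lowest in CD30high Th17 and highest in CD30low Th1 cells, and each step exceeded the technical SD in the brightest probe set. The summed T cell markers had the same order of samples as Adcy7, Pde2a and Pde3b, as had Cd3e and Cd3g. Cd4 had another order, with 582 in CD30high Th17, 679.8 in CD30low Th17, 773 in CD30high Th1 and 731 in CD30low Th1 cells. The part of T cell content in these signals was not tested.

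Crem encodes activators and repressors that bind the same DNA element as CREB, among them the inducible repressor ICER. Its brightest probe set had a signal of 9320.3 in CD30high Th17, 3036 in CD30low Th17, 2640.3 in CD30high Th1 and 2978 in CD30low Th1 cells. The second had 3098, 1216, 907 and 913 in the same order of samples. CD30high Th17 cells stood far above the other 3 samples, whose steps in the brightest probe set, 0.03 and 0.17 on the log2 scale, were within the technical SD. The remaining 2 probe sets of Crem were below 100 on every array, and no source used here assigns a probe set to an activator or a repressor form.

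**Figure D1:**
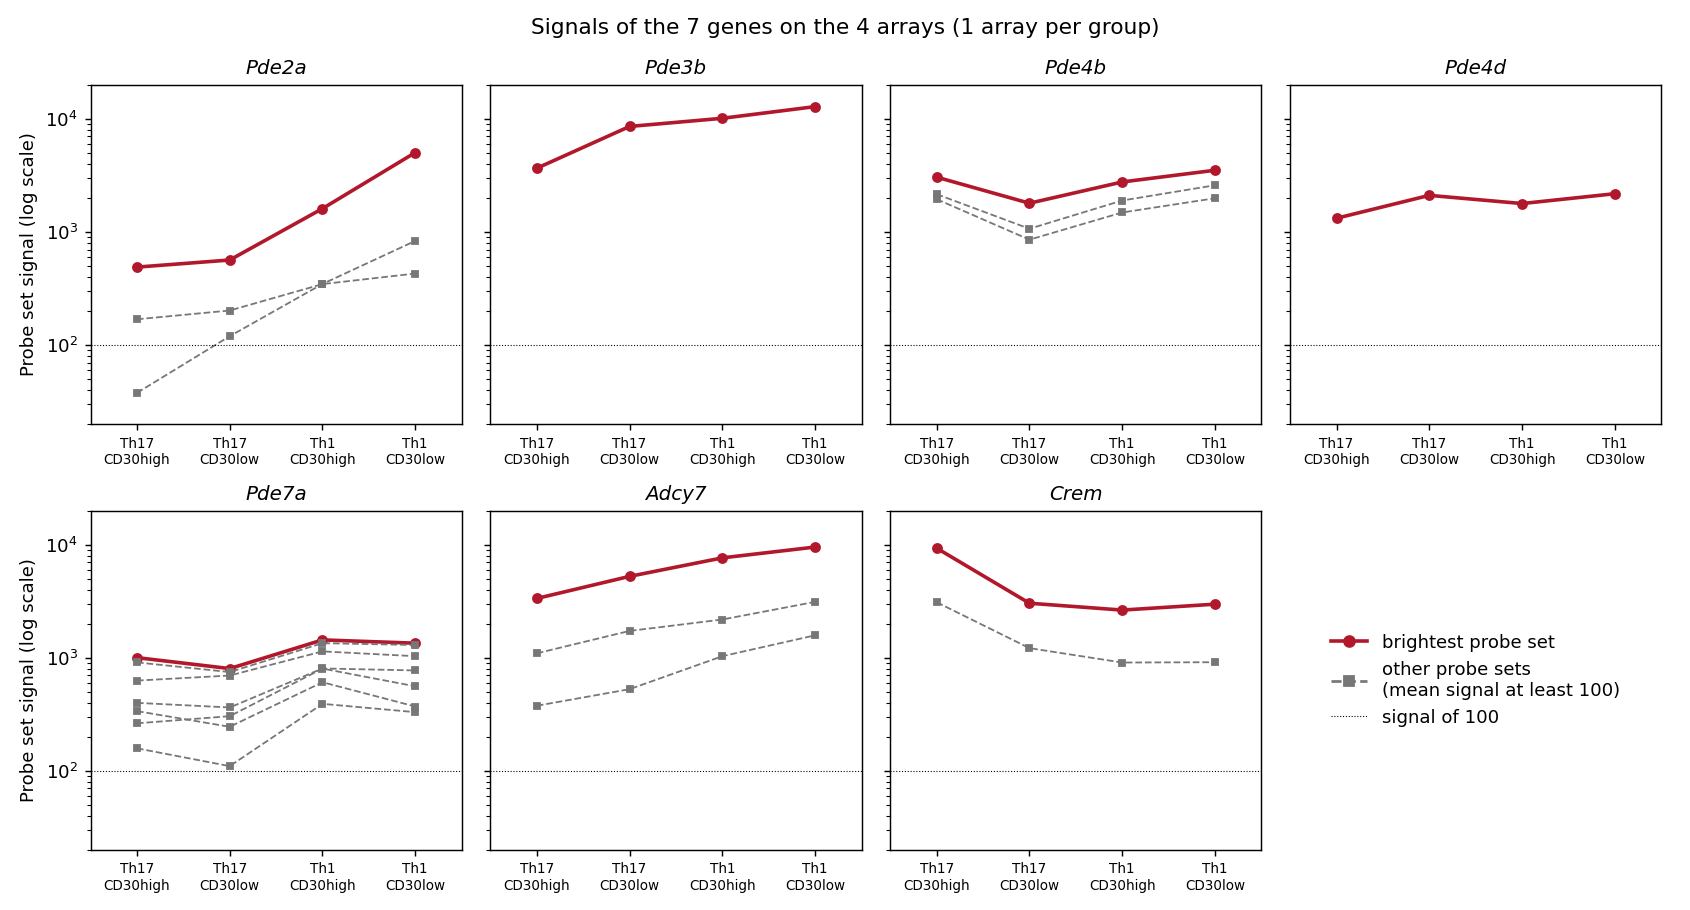
Signals (y axis, log scale) of the probe sets of each gene with a mean signal of at least 100 on the 4 arrays (x axis), 1 array per group; red circles are the brightest probe set and grey squares the others, and lines only join values of 1 probe set. Crem is highest in CD30high Th17 cells (9320.3), Pde2a is highest in CD30low Th1 cells (5044), and Adcy7 and Pde3b are lowest in CD30high Th17 cells (3346 and 3664).

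To ask how the genes go with CD30 in Th1 cells, CD30high and CD30low Th1 cells were compared. Only Pde2a passed the fold rule, 3.13-fold lower in CD30high cells (log2 ratio -1.65), so 0 of 7 genes were higher and 1 was lower. Among all 7813 genes tested 0.794% were higher and 0.486% were lower. Pde2a had the 6th lowest ratio of the 7813. Its second probe set was 2.40-fold lower and its dimmest 1.24-fold lower, so the size of the Pde2a difference depended on the probe set while the direction did not. The dimmest has a suffix that Affymetrix gives to probe sets that may bind unrelated transcripts, and the brightest has one for probe sets shared by several transcripts. Adcy7 (log2 ratio -0.32, with -0.52 and -0.61 in its other probe sets), Pde3b (-0.34), Pde4b (-0.34) and Pde4d (-0.29) lay below 0 by more than the technical SD but did not pass. Pde7a (0.10) and Crem (-0.17) were within it. Altogether 6 of 7 ratios were below 1, against 53.9% of all genes tested, with a median log2 ratio of -0.32 against -0.03 over all genes.

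In Th17 cells the same comparison gave another set of genes. Crem was 3.07-fold higher in CD30high than in CD30low Th17 cells (log2 ratio 1.62) and Pde3b was 2.34-fold lower (log2 ratio -1.23), so 1 of 7 genes passed in each direction. Among all 7786 genes tested 3.94% were higher and 3.66% were lower. Crem had the 119th highest ratio of these genes, and its second probe set was 2.55-fold higher. Pde3b had the 197th lowest ratio. No second probe set of Pde3b was at hand to set beside it. Pde4b was 1.70-fold higher in its brightest probe set, which is under the rule, and 2.02-fold and 2.28-fold higher in the others, which are past it. Adcy7 was 1.57-fold lower, with 1.58-fold and 1.40-fold lower in its other probe sets, and Pde4d was 1.59-fold lower. Pde2a (log2 ratio -0.21) did not pass, nor did it with the mean of its probe sets (-0.71). Pde7a (0.32) did not pass either, and its 7 probe sets ranged from -0.21 to 0.53. The phosphodiesterase genes thus did not share a direction in Th17 cells, with Pde4b above and Pde3b and Pde4d below 1 by more than the technical SD. The median log2 ratio of the 7 genes was -0.21, against 0.01 over all genes tested.

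The Th17 samples also differed in genes of other cell types. The summed signal of 4 neutrophil genes was 1845 in CD30high and 7273 in CD30low Th17 cells, with 2 of 4 (S100a8 and S100a9) at 100 or more and the granule genes Mpo and Elane below 100. Of 5 fibroblast genes, Dcn and Lum reached 100 and the sum was 7703 in CD30high and 932 in CD30low Th17 cells, while the defining collagen genes Col1a1 and Col3a1 were below 100. The other sums over CD30high and CD30low Th17 cells were 399 and 221 for 4 B cell genes (2 and 0 of them at 100), 583 and 431 for 6 monocyte and macrophage genes (3 and 1), 425 and 502 for 3 natural killer and CD8 genes (1 and 1), and 337 and 510.1 for 3 endothelial genes (1 and 1). No dendritic cell, erythroid or platelet gene listed reached 100. The part of such cells in the signals of the members, between the gates or between the lineages, was not tested. In CD30high and CD30low Th1 cells the neutrophil sums were 177 and 82, the fibroblast sums 219.8 and 156, the B cell sums 376 and 236, the monocyte and macrophage sums 557 and 424, the natural killer and CD8 sums 594 and 788 and the endothelial sums 583 and 477.

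**Figure D2:**
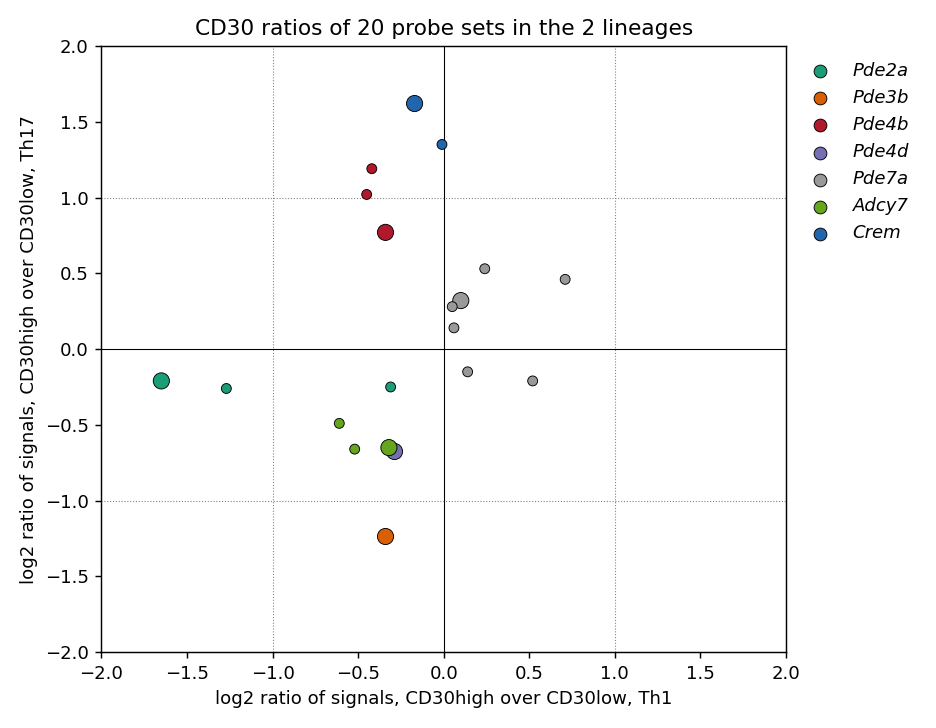
Log2 ratio of signals, CD30high over CD30low, in Th17 cells (y axis) against the same ratio in Th1 cells (x axis) for the 20 probe sets with a mean signal of at least 100; colours are genes, large points the brightest probe set of a gene, dotted lines mark 2-fold, and no error bars are drawn because each group had 1 array. Crem and Pde4b lie above 0 in Th17 and below 0 in Th1 cells, Pde2a lies farthest left (-1.65) and Pde3b lowest (-1.23).

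The difference between the CD30 ratios of the lineages was taken as the log2 ratio in Th17 minus that in Th1 cells. It was at least 1 log2 unit upward for Crem (1.79), Pde2a (1.44) and Pde4b (1.11), that is for 3 of 7 genes, and at least 1 unit downward for 0 of 7. Of all 8227 genes with a signal of 300 on any array, 3.18% passed upward and 3.40% downward. The values came about in different ways. Crem and Pde4b were above 1 in Th17 and below 1 in Th1 cells in every probe set above 100. Crem was within the technical SD of 1 in Th1 cells. Pde2a instead was below 1 in both lineages, and more so in Th1 cells by its brightest probe set. The Pde2a value was 0.06 in the dimmest probe set and 0.37 with the mean of the probe sets. In the second probe set the value of 1.01 is an upper bound. There the CD30high Th17 signal of 37.7, against 119.7 in CD30low Th17 cells, was set to 100. Pde3b had -0.89, Pde4d -0.38, Adcy7 -0.33 and Pde7a 0.22. With 1 array per group this difference has no residual and was not tested.

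Comparison of the lineages in CD30high cells gave 1 gene higher and 3 lower in Th17 than in Th1 cells. Among all 7979 genes tested 4.98% were higher and 6.86% were lower. Crem was 3.53-fold higher, and 3.42-fold in its second probe set. Lower were Pde2a (3.30-fold), Pde3b (2.77-fold) and Adcy7 (2.29-fold), and the other Adcy7 probe sets were 1.99-fold and 2.75-fold lower. All 3 Pde2a probe sets passed 2-fold, although for the second the Th17 signal of 37.7 was set to 100, so that its 3.47-fold is a lower bound. Pde7a was 1.44-fold lower in its brightest probe set and between 1.48-fold and 3.05-fold lower in the other 6. Pde4d (1.35-fold lower) and Pde4b (1.10-fold higher) did not pass.

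In CD30low cells 0 of 7 genes were higher and 1 was lower in Th17 than in Th1 cells. Of all 7857 genes tested 3.53% were higher and 5.83% were lower. The gene was Pde2a, 8.93-fold lower with the 29th lowest ratio of all genes, and 6.97-fold and 2.13-fold lower in its other probe sets. Pde4b was 1.96-fold lower, just under the rule, and 2.43-fold and 2.33-fold lower in its other probe sets. Adcy7 (log2 ratio -0.86), Pde7a (-0.75) and Pde3b (-0.58) were lower without passing. In other probe sets 1 of Adcy7 (-1.58) and 2 of Pde7a (-1.09 and -1.59) were past the rule. Pde4d (1.03-fold lower) and Crem (1.02-fold higher) were within the technical SD, although the second Crem probe set had a log2 ratio of 0.41. The median log2 ratio of the 7 genes was -0.75 in CD30low and -0.52 in CD30high cells, against 0.00 and 0.04 over all genes. These comparisons and those between the gates use the same 4 arrays.

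**Figure D3:**
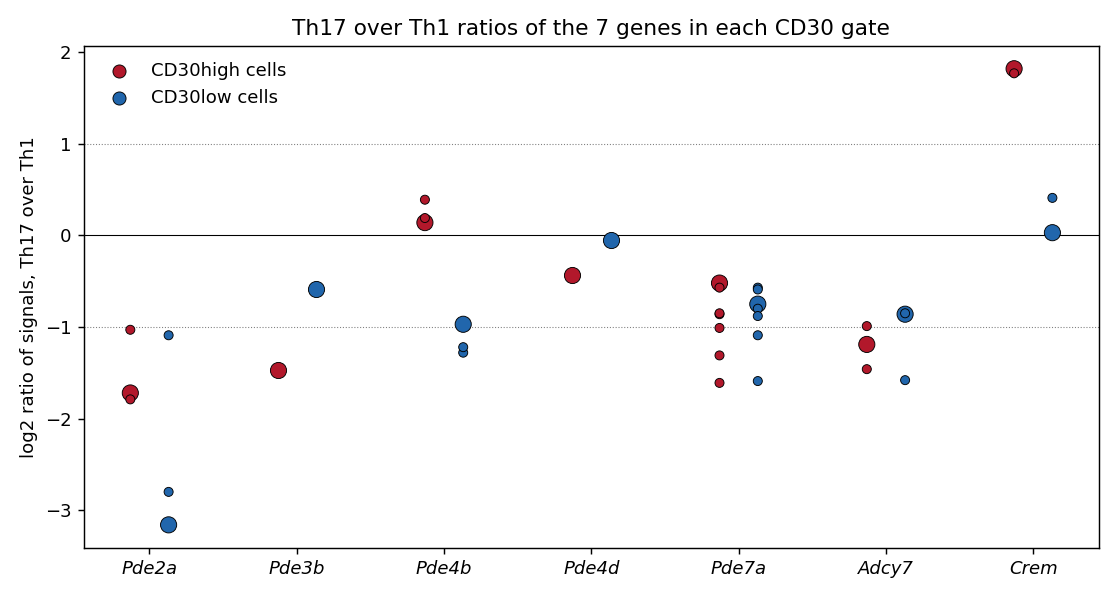
Log2 ratio of signals, Th17 over Th1 (y axis), for the probe sets of each gene (x axis) with a mean signal of at least 100, in CD30high cells (red) and CD30low cells (blue), 1 array per group; large points are the brightest probe set and dotted lines mark 2-fold. Pde2a is lowest in CD30low cells (-3.16), Crem is past 2-fold in CD30high cells alone (1.82), and all Pde7a and Adcy7 points lie below 0.

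Of 95 other genes of the pathway 88 were named in the annotation, and 36 to 44 of them were bright enough to be tested in a comparison. The lists of these genes were also chosen with earlier results of these data known. In Th1 cells 0 of 36 passed in either direction between the gates, and in Th17 cells 3 of 43 were higher and 4 lower in CD30high cells. Over all genes the shares higher and lower were 0.794% and 0.486% in Th1 cells and 3.94% and 3.66% in Th17 cells. Between Th17 and Th1 cells 4 of 37 were higher and 2 lower in the CD30high gate, and 9 of 44 were higher and 2 lower in the CD30low gate. Over all genes the shares higher and lower were 4.98% and 6.86% in the CD30high gate and 3.53% and 5.83% in the CD30low gate.

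Other phosphodiesterase genes were dim. Of 10 other cyclic AMP phosphodiesterase genes only Pde8a reached 300 on any array, with 298 in CD30high Th17, 389.6 in CD30low Th17, 286 in CD30high Th1 and 227 in CD30low Th1 cells, and Pde1b stayed between 166 and 296. Pde5a, whose product degrades cyclic GMP alone, had 40.4 in CD30high Th17, 329 in CD30low Th17, 100.2 in CD30high Th1 and 243 in CD30low Th1 cells. It was at least 3.29-fold lower in CD30high than in CD30low Th17 cells and 2.42-fold lower in Th1 cells, where its signals were under the limit of 300. This probe set has the suffix for possible binding of unrelated transcripts, as has the dimmest of Pde2a. The second Pde5a probe set had 29.4, 229, 136 and 302. It is past the rule between the gates in Th1 cells but not in Th17 cells, where its signals were under 300. Both Pde5a probe sets were thus lower in the CD30high sample of each lineage. Pde6d, which despite its name encodes a carrier of prenylated proteins, had 1574 in CD30high Th17, 896 in CD30low Th17, 227 in CD30high Th1 and 291 in CD30low Th1 cells.

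Among the cyclases, Adcy6 (between 819 and 1336) and Adcy3 (between 386 and 531) were the bright genes beside Adcy7, and neither passed in any comparison. None of the 5 guanylyl cyclase genes reached 300.

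Of the genes of receptors that raise cyclic AMP and of G proteins, 9 were named. Between Th17 and Th1 cells 2 of 6 tested were higher in the CD30high gate (4.98% of all genes) and 2 of 7 in the CD30low gate (3.53% of all genes), with a median log2 ratio of 0.58 and -0.02 against 0.04 and 0.00 over all genes, and 0 were lower. Gpr65, a receptor that senses protons, had a signal of 4025 in CD30high Th17, 745 in CD30low Th17, 939 in CD30high Th1 and 797 in CD30low Th1 cells. As for Crem, CD30high Th17 cells stood above the other 3 samples, with a 5.40-fold higher signal than CD30low Th17 and a 4.28-fold higher one than CD30high Th1 cells. The prostaglandin E2 receptor gene Ptger2 had 3048 in CD30high Th17, 2113 in CD30low Th17, 1064 in CD30high Th1 and 921 in CD30low Th1 cells. It was higher in Th17 than in Th1 cells in both gates (2.86-fold in CD30high and 2.29-fold in CD30low cells). Ptger4, another such receptor gene, passed in CD30low cells only, with 5741 in Th17 and 2637 in Th1 cells, and was at 4650.5 in Th17 and 2705 in Th1 cells in the CD30high gate. Gnas, which encodes the stimulatory G protein, was between 11341 and 13995 and passed nowhere.

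Of the effectors, Prkacb, a catalytic subunit gene of protein kinase A, was 2.07-fold lower in Th17 than in Th1 cells in the CD30high gate, with 2267 in Th17 and 4693 in Th1 cells. The regulatory subunit gene Prkar1a was between 7210.0 and 10023. Prkar1b, another regulatory subunit gene, had 125 in CD30high and 323 in CD30low Th17 cells (2.57-fold lower), and only this probe set of its 5 reached 300. That probe set also has the suffix for possible binding of unrelated transcripts. The anchor gene Akap12 was higher in Th17 than in Th1 cells in the CD30low gate (403 in Th17 and 176 in Th1 cells), and Akap13 (between 4839 and 7591) passed nowhere in its brightest probe set. Its second brightest was lower in CD30high Th17 (718) than in CD30high Th1 cells (1819.8), past the rule. By the brightest probe set no CREB factor or coactivator gene passed, and Creb1 itself was at 1741 in CD30high Th17, 2657 in CD30low Th17, 2817 in CD30high Th1 and 2967 in CD30low Th1 cells. The second brightest Creb1 probe set was past the rule in the CD30high gate, with 964 in Th17 and 1945 in Th1 cells.

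Genes known as CREB targets did not share a direction between the gates in Th17 cells. Of 7 tested in Th17 cells 2 were higher (3.94% of all genes) and 2 lower (3.66% of all genes) in the CD30high gate, with a median log2 ratio of -0.33 against 0.01 over all genes. In CD30high against CD30low Th17 cells the clock gene Per1 (574 and 271) and the signalling regulator gene Rgs2 (323 and 161) were higher, while the transcription factor genes Fos (159 and 842) and Nr4a3 (28.3 and 331) were lower. The Nr4a3 signals came from 1 probe set. Its other probe sets were below 100 on every array, with 64.9 in CD30high and 12.3 in CD30low Th17 cells in the brighter. The Rgs2 difference lay at the limit itself (2-fold), with a second probe set at 298 and 147. Between the lineages Junb was higher in Th17 than in Th1 cells in both gates, with 2486 and 607 in CD30high and 1266 and 384 in CD30low cells. In the CD30low gate Fos, Nr4a1 and Nr4a3 were also higher and Rgs2 was lower in Th17 cells. There 4 of 7 targets tested were higher (3.53% of all genes) and 1 was lower (5.83% of all genes). The median log2 ratio of the 7 was 1.46 against 0.00 over all genes. In the CD30high gate 1 of 5 tested was higher (4.98% of all genes) and 0 were lower (6.86% of all genes). Their median was 0.74 against 0.04 over all genes. Entpd1, the gene of CD39, which begins the conversion of ATP to adenosine, was at 154 in CD30high Th17, 156 in CD30low Th17, 1025 in CD30high Th1 and 1039 in CD30low Th1 cells, and its other 2 probe sets were also lower in both Th17 samples.

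**Figure D4:**
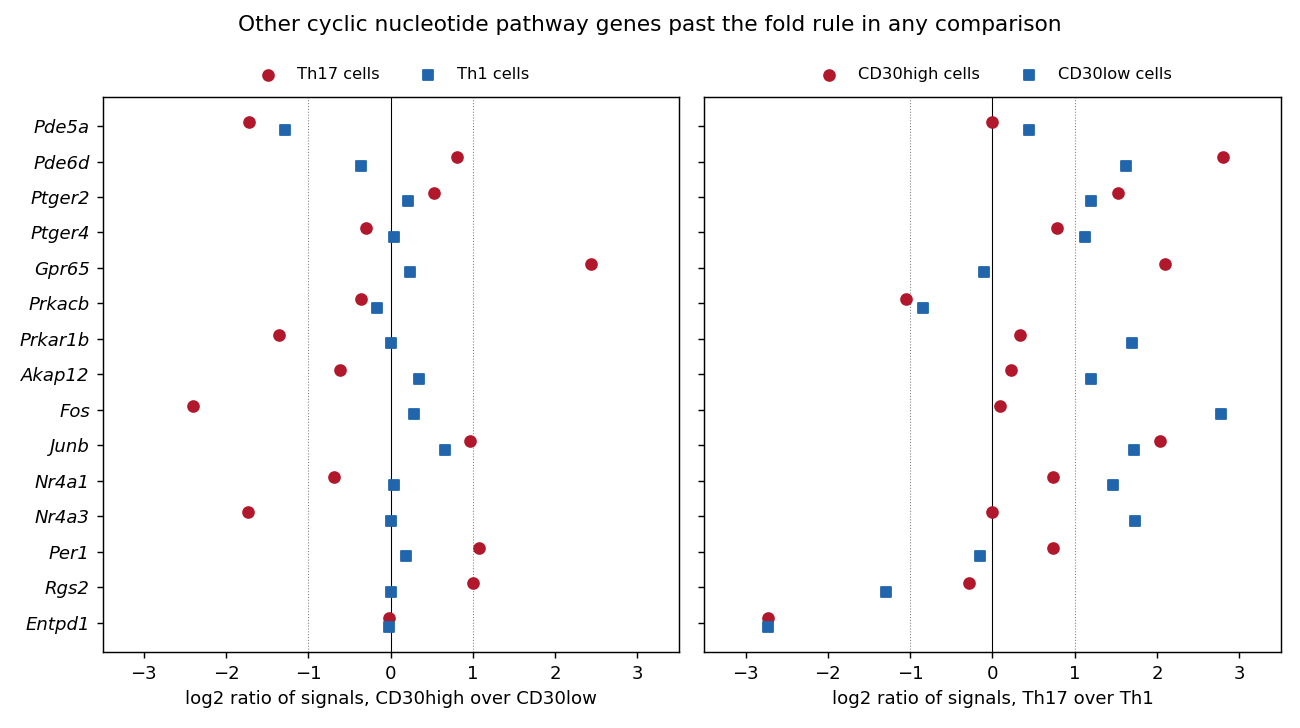
Log2 ratios of signals of the 15 other pathway genes that passed the fold rule in any comparison, for CD30high over CD30low (left, Th17 circles and Th1 squares) and for Th17 over Th1 (right, CD30high circles and CD30low squares); dotted lines mark 2-fold and signals below 100 were set to 100. Gpr65 is highest on the left in Th17 cells (2.43) and Fos lowest (-2.40), and the plotted Pde5a probe set, beyond 2-fold in Th1 cells, stayed there under a signal of 300.

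The genes most like each member that passed were sought among 8226 other genes. The measure was the Euclidean distance between centred log2 signals over the 4 arrays, with signals below 100 set to 100. Nearest to Pde2a were the sialyltransferase gene St3gal6 (distance 0.39), Ptger3 (0.51), which encodes a prostaglandin E2 receptor that lowers cyclic AMP, and the nonagouti gene a (0.52). Ptger3 had 33.1 in CD30high Th17, 100.4 in CD30low Th17, 411 in CD30high Th1 and 798 in CD30low Th1 cells. Nearest to Pde3b were Gpcpd1 (0.03), Jakmip1 (0.06) and the OX40 ligand gene Tnfsf4 (0.07), nearest to Adcy7 were Ptpn18 (0.07), Gimap7 (0.08) and Lsp1 (0.10), and nearest to Crem were Lpp, Papss2 and Pdgfa (0.16 each). Papss2 and Pdgfa were below 100 in all samples but CD30high Th17 (316 and 313). Their flat course over the other samples thus came from setting signals to 100. St3gal6 likewise had 29.7 in CD30high and 52.5 in CD30low Th17 cells, both set to 100. With 4 values per gene such distances are a description only.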

How the data were processed

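Total RNA labelled with biotin by a 3′ IVT kit was measured on 4 Affymetrix mouse genome arrays. The intensity values deposited by the authors are linear probe set signals, made with GCOS by the methods and with Affymetrix Expression Console by the submitters' processing notes; version, algorithm and scaling target are not given in the sources used here. After trimming both tails, the mean signal came to 497 on every array, which hides any shift common to most genes. Signals of 45037 probe sets were used, with no detection calls.

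Symbols of the platform annotation were updated through gene IDs (34741 of 34945 probe sets with 1 symbol matched). Probe sets with several symbols (932) or no name (9160) were not used. The fold rule was tested on simulated data with planted changes larger than its fold limit, so that test does not cover genes near the limit. Groups came from the sample titles. Named were the members, the pathway genes past the rule or the 2 brightest of a list, and the 3 nearest genes per member past the rule. Members and lists were chosen with earlier results of these data known. Alternatives changed the scaling, floor, signal limit, fold limit and probe set. The number of arrays limits the precision. The scripts ran under Python 3.11.15 with pandas 2.3.3, numpy 2.4.6 and matplotlib 3.10.9.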

Additional observations from a re-analysis of the deposited data

Results flagged for a closer look

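Crem and Pde4b stood out because all their probe sets with a mean signal of at least 100 went one way in Th17 and the other way in Th1 cells. The CD30high over CD30low log2 ratio in Th17 minus that in Th1 cells was 1.79 for Crem (1.36 in its second probe set) and 1.11 for Pde4b (up to 1.61 over its 3 probe sets). With 1 array per group these differences were not tested, and the Crem ratios in Th1 cells (-0.17 and -0.01) were within the technical SD.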

How the results depend on the processing

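Median centring, quantile normalization and a floor of 50 gave the same genes past the rule in all comparisons. Of 200 recomputed log2 ratios of the members 185 moved by less than the technical SD, and 0 of the ratios past the rule changed sign. With the mean of the probe sets or the second brightest one, Pde2a in Th1 cells was at -1.08 or -1.27 and Pde4b in Th17 cells at 0.99 or 1.02. Pde2a in Th17 cells was then at -0.71 or -0.26, where the second probe set had a signal set to 100.

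The count of members past the rule for CD30high over CD30low in Th17 cells was 5 with a 1.5-fold limit (Pde4b, Adcy7 and Pde4d added) and 1 with a 3-fold limit (Crem). Between the lineages it was 2 in CD30high cells with a 3-fold limit or the second brightest probe set, taken where it had a mean signal of 100, which left 5 members. In CD30low cells it was 4 with a 1.5-fold limit, 3 with the mean of the probe sets and 2 with the second brightest. The count for the difference of the CD30 ratios was 1 with a 3-fold limit (Crem), and without Pde2a it was 2 with the mean of the probe sets.

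Counts of pathway genes moved more. With a 1.5-fold limit they were 5 for the gates in Th1 cells, 16 for the gates in Th17 cells, 12 for the lineages in CD30high cells and 20 in CD30low cells, and with a 3-fold limit 4 for the gates in Th17 cells and 6 for the lineages in CD30low cells. In Th17 cells the count between the gates was 3 with a floor of 200, with a signal limit of 500 or with the mean of the probe sets (Fos in each, with Gpr65 and Per1). A signal limit of 500 gave 7 for the lineages in CD30low cells, and a limit of 100 gave 1 in Th1 cells (Pde5a). With the second brightest probe set, held by 29 pathway genes, the counts were 1 in Th1 cells (Pde5a), 0 in Th17 cells, 3 for the lineages in CD30high cells (Akap13, Creb1 and Entpd1) and 3 in CD30low cells (Ptger4, Entpd1 and Rgs2). No paired analysis was possible because each group had 1 array, and for the same reason no replicate could be left out.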
